A study of Arabidopsis thaliana with 24 samples.

Results

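AT3G62550 and AT3G53990 are 2 genes of the universal stress protein family of Arabidopsis thaliana, followed here across leaves of 3 transgenic lines and their wild types with and without salt. They were selected on earlier differences between the groups of these same arrays, so their levels and differences are given as a description, with no p-value. Each gene has 1 probe set that the platform annotation pairs with no other gene, so the 2 genes are 2 of the 22746 non-control probe sets on the array, and 2 of the 13287 genes that have a probe set to themselves. Both probe sets read above the array median in every array. AT3G62550 lay between 2.20 and 6.88 log2 units above the median of its array, and AT3G53990 between 2.60 and 5.96. In the 16 arrays outside Ws and Col, AT3G62550 was above 98.9% to 99.6% of the probe sets of its array, and whether the signal still follows the transcript there was not tested.

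Universal stress proteins take their name from the bacterial protein UspA, which accumulates when growth stops under many kinds of stress. In plants the domain occurs alone in small proteins, many of which bind nucleotides, or joined to a protein kinase in larger ones. AT3G53990 codes for a small protein of the first kind that has been described as a chaperone under heat and oxidative stress, and AT3G62550 codes for another small protein whose function is less clear. No protein or promoter sequence of these genes is shown, since none was analysed here.

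Leaf RNA was hybridised to 24 Affymetrix ATH1 arrays, 2 biological replicates in each of 12 groups, all sampled on day 20 after sowing. The 3 lines are named as overexpressors in the labels: CBF3, a transcription factor of the cold response, in the Ws background; M6PR, the celery enzyme mannose-6-phosphate reductase, which makes a precursor of mannitol, in Col-0; and SOS1, which exchanges sodium for protons at the plasma membrane, in Col(gl). Each line and each wild type (Ws, Col and Col(gl)) was grown at 100 mM NaCl and at 0 mM NaCl. Col(gl) is a glabrous, or hairless, Columbia wild type. Salt began on day 14 and was raised in steps of 50 mM, so salted leaves had met it for 6 days. Each sample pooled fully developed leaves of at least 15 seedlings. The sources used here do not give the promoters of the transgenes or the number of independent lines. In pooled leaves, more transcript per cell and more cells that hold the transcript cannot be told apart.

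A few facts of the whole series bear on the values. The 2 arrays of a group differed with an SD over probe sets between 0.17 log2 units in Col(gl) at 0 mM and 0.63 in SOS1 at 0 mM. A pair of arrays stood apart in the dap spike-in control, replicate 1 of Ws at 100 mM (4.86) and replicate 1 of Col at 100 mM (5.03), against 7.33 to 9.52 in the other 22 arrays. Both belong to salted wild types, and the values of both members that rest on them are given below also without them. In the free-text descriptions the backgrounds of CBF3 and M6PR are exchanged, so this was checked. Of 25 probe sets that separated Ws from both Columbia wild types by over 3 log2 units, 24 put every CBF3 array nearer to Ws, and 0 did so for any M6PR or SOS1 array.

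AT3G62550 gave nearly the same signal in every array of the CBF3, M6PR, SOS1 and Col(gl) groups, and a lower one in every array of Ws and Col. In CBF3 leaves it read 12.81 and 12.59 log2 units at 100 mM NaCl, and 12.67 and 12.27 at 0 mM. In Ws leaves it read 11.32 and 11.09 at 100 mM, and 8.17 and 8.53 at 0 mM. All 4 CBF3 arrays were thus above all 4 Ws arrays, and the unsalted Ws arrays were the lowest of the 24. In M6PR leaves the gene read 12.40 and 12.42 at 100 mM, and 12.25 and 12.28 at 0 mM. In Col leaves it read 11.20 and 11.57 at 100 mM, and 10.08 in both arrays at 0 mM. Again the line and its wild type did not overlap, and salted Col leaves stood above unsalted ones. In SOS1 leaves the signals were 12.59 and 11.93 at 100 mM, and 12.25 and 12.32 at 0 mM. In Col(gl) leaves they were 12.52 and 12.44 at 100 mM, and 12.44 and 12.39 at 0 mM. Here line, wild type and salt overlapped or lay close together, and replicate 2 of salted SOS1 leaves was the lowest of these 8 arrays.

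AT3G53990 shared the low signals of unsalted Ws and Col leaves, but it was high in a different set of arrays. In CBF3 leaves it read 11.89 and 11.39 log2 units at 100 mM NaCl, and 11.71 and 11.53 at 0 mM. In Ws leaves it read 10.31 and 9.86 at 100 mM, and 8.65 and 8.56 at 0 mM. Salted Ws leaves lay between the CBF3 arrays and the unsalted Ws arrays. In M6PR leaves it read 9.77 and 9.64 at 100 mM, and 10.00 and 9.90 at 0 mM. In Col leaves it read 9.62 and 9.61 at 100 mM, and 8.93 and 8.58 at 0 mM. The salted Col arrays came up to just below the salted M6PR arrays, and the unsalted Col arrays stayed well below the unsalted M6PR ones. In SOS1 leaves it read 10.23 and 9.98 at 100 mM, and 9.61 and 10.15 at 0 mM. In Col(gl) leaves it read 10.09 and 10.16 at 100 mM, and 10.43 and 10.44 at 0 mM. The 4 CBF3 arrays, from 11.39 to 11.89, were above the other 20 arrays, which ran from 8.56 to 10.44.

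**Figure D1:**
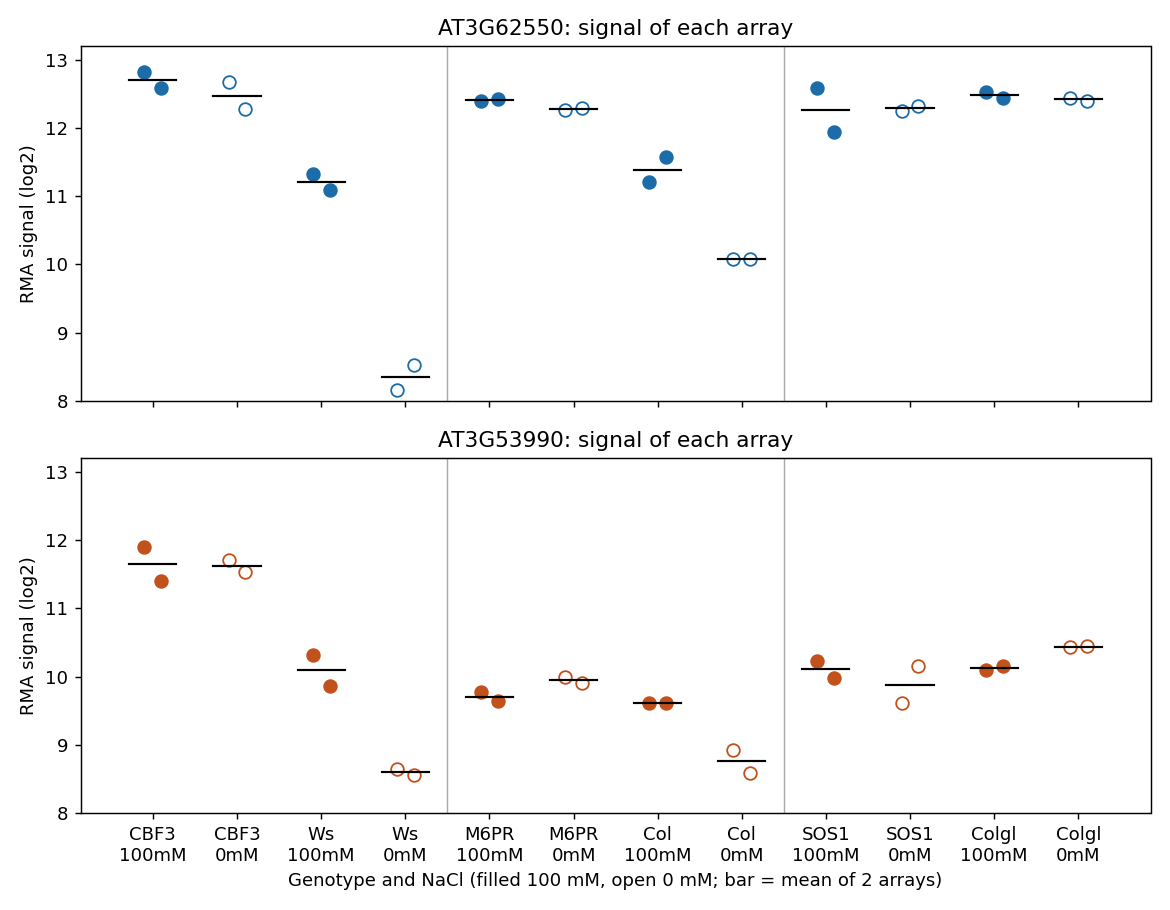
RMA signal in log2 units (y axis) of AT3G62550 (top) and AT3G53990 (bottom) in each of the 24 arrays, by genotype and NaCl (x axis, filled points 100 mM, open points 0 mM, bars the mean of 2 arrays, Colgl for Col(gl)). For AT3G62550 the 8 arrays of Ws and Col lie between 8.17 and 11.57 and the other 16 between 11.93 and 12.81. For AT3G53990 the 4 CBF3 arrays lie above all others.

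Ordered by group mean, AT3G62550 fell into a few levels. Unsalted Ws was lowest at 8.35 ± 0.26 log2 units (SD, n = 2), 1.73 below unsalted Col at 10.08, which in turn was 1.13 below salted Ws at 11.21 ± 0.17. Salted Ws and salted Col (11.39 ± 0.26) differed by 0.18, with overlapping arrays. A gap of 0.87 then led to the 8 groups of CBF3, M6PR, SOS1 and Col(gl). Of these, 7 groups, from salted SOS1 at 12.26 ± 0.46 to salted Col(gl) at 12.48 ± 0.059, followed each other in steps of at most 0.13, below the residual SD of 0.20 over the 24 arrays. Salted CBF3 leaves were the highest at 12.70 ± 0.16, 0.22 above the next group, a step hardly larger than that SD. The whole span between group means was 4.35 log2 units, or 20.4-fold, which was wider than in 99.1% of the 22746 probe sets. The gene was selected on such differences.

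The order of AT3G53990 differed at the top. Unsalted Ws (8.60 ± 0.065) and unsalted Col (8.76 ± 0.25) were lowest and overlapped. Salted Col followed 0.86 higher at 9.61 ± 0.0092. From there to salted Col(gl) at 10.13 ± 0.048, 7 groups followed in steps of at most 0.17, under the residual SD of 0.20. Unsalted Col(gl) was 0.31 above them at 10.44 ± 0.0096. The unsalted CBF3 group was a further 1.18 higher at 11.62 ± 0.13, and the salted one, at 11.64 ± 0.35, overlapped it. Group means spanned 3.04 log2 units, or 8.24-fold, wider than in 96.7% of probe sets, and this gene too was selected on such differences.

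The comparisons of each line with its own wild type ask how leaves that carry the transgene differ at the same salt level. They were fitted with limma over all probe sets, and a probe set is called when its adjusted p is below 0.05. AT3G62550 and AT3G53990 were selected on these differences, so whether they are called is given only as part of their description beside the share of all probe sets called, is no test of them, and nothing is read from it. Both genes were higher in CBF3 than in Ws leaves. Without salt, AT3G62550 was at 12.47 ± 0.28 in CBF3 leaves and 8.35 ± 0.26 in Ws leaves (SD, n = 2 each), a log2 difference of 4.12 ± 0.20 (SE of the fit) or 17.4-fold. AT3G53990 was at 11.62 ± 0.13 in CBF3 leaves and 8.60 ± 0.065 in Ws leaves, a log2 difference of 3.02 ± 0.20 or 8.12-fold. At 100 mM NaCl the differences were smaller and alike in size, 1.49 ± 0.20 (2.82-fold) for AT3G62550 and 1.55 ± 0.20 (2.94-fold) for AT3G53990. Without the salted Ws array that stood apart, they were 1.61 for AT3G62550 and 1.78 for AT3G53990. Both genes were called at both salt levels, where 6.79% of all probe sets were called at 0 mM and 3.73% at 100 mM. Their arrays did not overlap upward, as for 28.6% of all probe sets at 0 mM and 30.4% at 100 mM.

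The M6PR line differed from Col for both genes without salt, and for AT3G62550 with salt as well. Without salt, AT3G62550 was at 12.27 ± 0.021 in M6PR leaves and 10.08 in Col leaves, a log2 difference of 2.19 ± 0.20 or 4.57-fold. AT3G53990 was at 9.95 ± 0.068 in M6PR leaves and 8.76 ± 0.25 in Col leaves, a difference of 1.19 ± 0.20 or 2.28-fold. Both were among the 10.3% of probe sets called. At 100 mM, AT3G62550 was higher in M6PR leaves by 1.02 ± 0.20 (2.03-fold), and AT3G53990 by 0.10 ± 0.20. AT3G62550 was among the 0.528% of probe sets called there, and AT3G53990 was not. The call of AT3G62550 at 100 mM was lost without replicate 1 of salted Col, where the difference was 0.84, and without replicate 1 of salted M6PR. That of AT3G53990 was 0.10 without the same Col array. Arrays of M6PR and Col did not overlap for either gene at either salt level, as for 21.4% of all probe sets upward at 0 mM and 31.6% at 100 mM.

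In the SOS1 line neither gene was called against Col(gl). AT3G62550 differed by -0.13 ± 0.20 log2 units at 0 mM and by -0.22 ± 0.20 at 100 mM, and AT3G53990 by -0.56 ± 0.20 at 0 mM and by -0.02 ± 0.20 at 100 mM. Of all probe sets, 1.24% were called at 0 mM and 3.13% at 100 mM. At 0 mM the line's arrays were below the wild type's without overlap for both genes, as for 22.6% of all probe sets. AT3G53990 was called there when replicate 2 of unsalted SOS1 was left out, with a difference of -0.83. The value thus depends on which SOS1 array is used, and these were the replicates that differed most over the whole array.

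Salt went with higher levels of both genes in Ws and Col leaves and with small differences in the other 4 genotypes. In Ws leaves, AT3G62550 was at 11.21 ± 0.17 at 100 mM and 8.35 ± 0.26 at 0 mM, a log2 difference of 2.85 ± 0.20 or 7.23-fold. AT3G53990 was at 10.09 ± 0.32 in salted Ws leaves and 8.60 ± 0.065 in unsalted ones, a difference of 1.49 ± 0.20 or 2.81-fold. Both were among the 4.71% of probe sets called. Without the salted Ws array that stood apart the differences were 2.74 for AT3G62550 and 1.26 for AT3G53990. In Col leaves, AT3G62550 was at 11.39 ± 0.26 at 100 mM and 10.08 at 0 mM, a difference of 1.31 ± 0.20 or 2.47-fold. AT3G53990 was at 9.61 ± 0.0092 in salted Col leaves and 8.76 ± 0.25 in unsalted ones, a difference of 0.86 ± 0.20 or 1.81-fold. Both were called, in a comparison where 20.9% of all probe sets were. Salted arrays of Ws and Col stood above unsalted ones without overlap for both genes, as for 24.2% of all probe sets in Ws and 27.0% in Col. Without the salted Col array that stood apart the differences were 1.49 for AT3G62550 and 0.85 for AT3G53990. For AT3G53990 in Col the call was lost without replicate 2 of unsalted Col (0.68) and without replicate 1 of salted Col.

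In the remaining genotypes the salt differences of AT3G62550 were 0.23 ± 0.20 in CBF3, 0.14 ± 0.20 in M6PR, -0.02 ± 0.20 in SOS1 and 0.07 ± 0.20 in Col(gl) leaves. Those of AT3G53990 were 0.02 ± 0.20 in CBF3, -0.24 ± 0.20 in M6PR, 0.22 ± 0.20 in SOS1 and -0.31 ± 0.20 in Col(gl) leaves. Without overlap between arrays were the M6PR and Col(gl) values of both genes. In M6PR, 16.0% of all probe sets were higher and 20.2% lower without overlap, and in Col(gl) 26.5% and 28.4%. None of these 8 values was called by limma. Few probe sets were called in these genotypes at all: 0.00879% in CBF3, 0.541% in M6PR, 0.132% in Col(gl) and 0.0% in SOS1. For both genes the salted and unsalted arrays overlapped in CBF3 and in SOS1. These 4 genotypes were also those with the higher unsalted levels of each gene.

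The difference between a line and its wild type in their response to salt was fitted as an interaction. For AT3G62550 the salt difference in CBF3 minus that in Ws was -2.62 ± 0.28 log2 units, and that in M6PR minus that in Col was -1.17 ± 0.28. AT3G53990 gave -1.47 ± 0.28 for CBF3 and -1.10 ± 0.28 for M6PR. For SOS1 against Col(gl) the values were -0.09 ± 0.28 for AT3G62550 and 0.53 ± 0.28 for AT3G53990. AT3G62550 was called for CBF3, where 0.0703% of probe sets were, and both genes for M6PR, where 6.08% were. AT3G53990 was not called for CBF3, and neither was called for SOS1, where 0.0% of probe sets were. Without both arrays that stood apart, the CBF3 values were -2.51 for AT3G62550 and -1.24 for AT3G53990, and the M6PR values -1.35 and -1.09. The M6PR calls were lost when any 1 of several arrays was left out. For AT3G62550 these were both unsalted Col arrays, both unsalted M6PR arrays, replicate 2 of salted Col and replicate 1 of salted M6PR. For AT3G53990 they were the same arrays and replicate 1 of salted Col. Over the 8 fits that each left out 1 array of these 4 groups, the values ran from -1.35 to -0.98 for AT3G62550 and from -1.27 to -0.92 for AT3G53990.

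**Figure D2:**
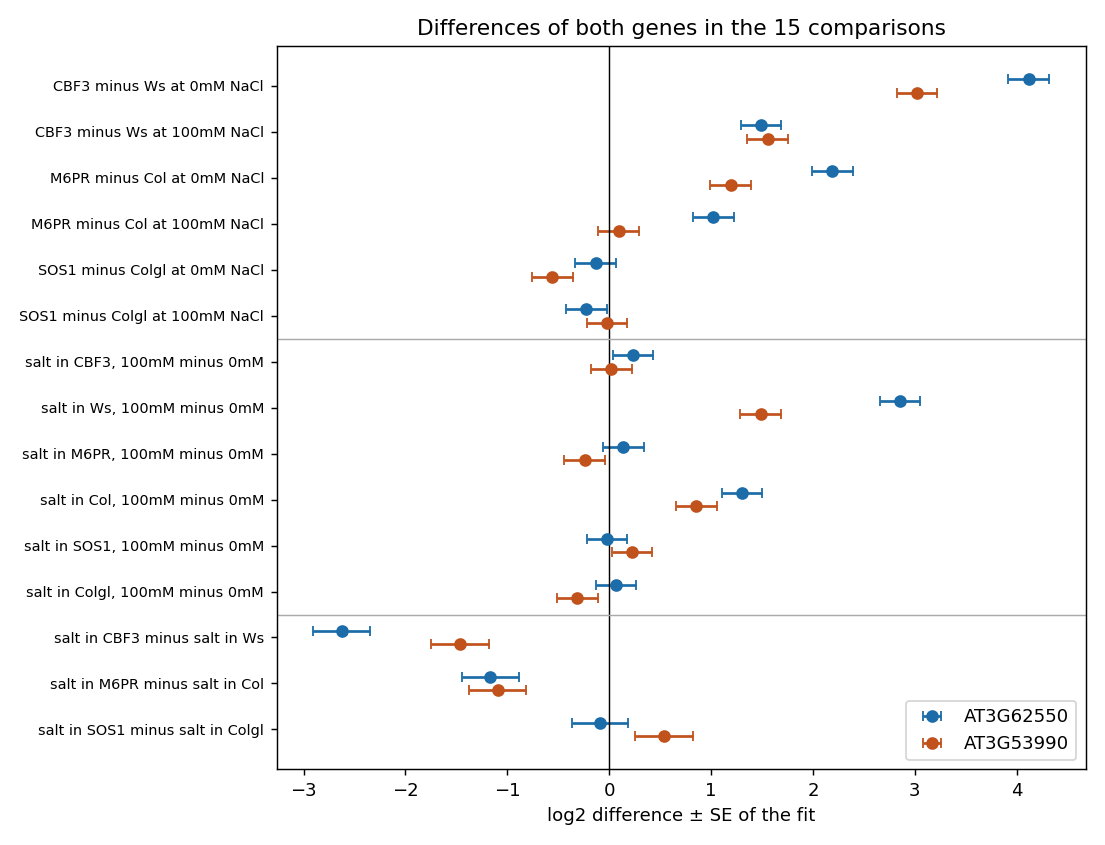
Log2 difference with the SE of the fit (x axis) of AT3G62550 (blue) and AT3G53990 (orange) in the 12 comparisons of 2 groups and the 3 interactions (rows, first-named group minus the other, Colgl for Col(gl)). The positive values furthest from 0 are CBF3 against Ws without salt, at 4.12 and 3.02, while all 8 salt values in CBF3, M6PR, SOS1 and Colgl lie between -0.31 and 0.23.

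The levels of the 2 genes were compared across groups. Over the 12 group means, which come from the same arrays for both genes, Pearson's r was 0.75 and Spearman's rho 0.82. Without unsalted Ws and Col, the groups farthest from the median of AT3G62550, r was 0.49 and rho 0.68 over 10 groups. Over the 8 groups other than CBF3 and Ws, r was 0.91 and rho 0.74. Among these, AT3G62550 lay between 12.26 and 12.48 in all M6PR, SOS1 and Col(gl) groups, and at 10.08 and 11.39 in unsalted and salted Col. The r of 0.91 thus rests largely on the Col groups. The differences between replicate 1 and replicate 2 of the 2 genes over the 12 groups had r 0.40 and rho 0.56. Among 13512 other probe sets with a single gene, AT3G53990 ranked 239th by its correlation with AT3G62550, and AT3G62550 ranked 154th by its correlation with AT3G53990.

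**Figure D3:**
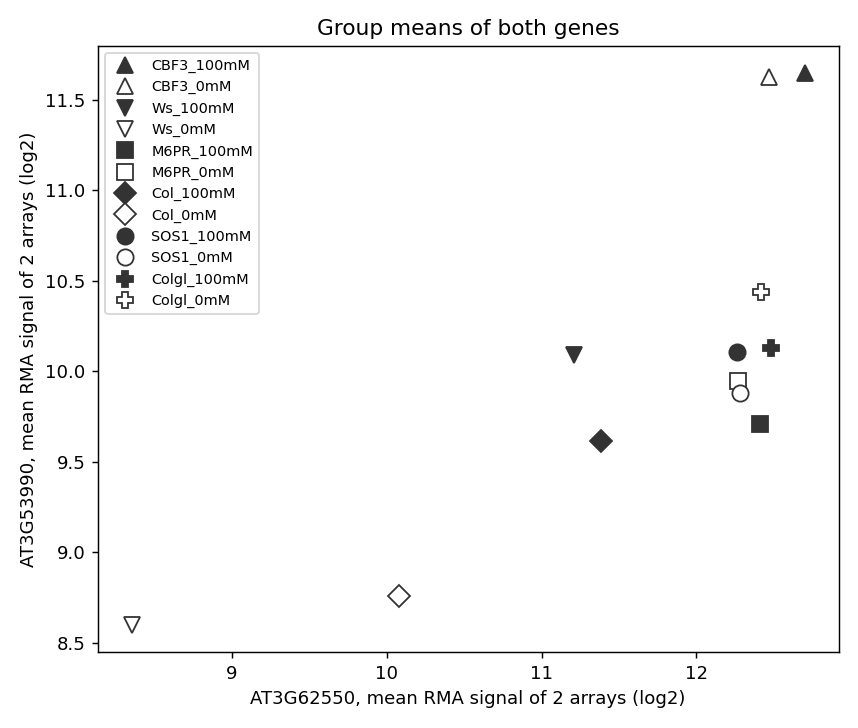
Mean signal of AT3G53990 (y axis, log2) against that of AT3G62550 (x axis, log2) in the 12 groups, each point a mean of 2 arrays, filled at 100 mM and open at 0 mM NaCl. Unsalted Ws and Col lie at the lower left, CBF3 at the upper right, and the groups between share a level of AT3G62550 near 12.3 to 12.5 or, for salted Ws and Col, near 11.2 to 11.4.

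Different genes followed each of the members most closely. The 5 probe sets with the highest r over the 12 group means with AT3G62550 were those of AT3G47160 (r = 0.96), AT5G25210 (0.96), AT2G15960 (0.95), AT5G11070 (0.95) and AT2G27830 (0.95). Each of the 5 was lowest in unsalted Ws leaves, as AT3G62550 was. Over the 24 arrays taken singly, the same 3 genes led, and PORB, the light-dependent protochlorophyllide oxidoreductase of chlorophyll synthesis, came in at the fourth place with r = 0.93. AT3G53990 was followed most closely by COR47, a cold-induced dehydrin (r = 0.98), AT5G13200 (0.97), AT1G68500 (0.93), AT5G24570 (0.93) and AT1G16840 (0.93), and the same 5 led over the 24 arrays. COR47 ran from 8.64 in unsalted Ws to 13.13 in salted CBF3 leaves. These correlations describe 12 points that share arrays, and 1% of the 13512 probe sets ranked had an r above 0.81 with AT3G62550 and above 0.76 with AT3G53990.

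The rest of the family was read from a list of 48 universal stress protein genes, of which 45 had a single-gene probe set on the array. Besides the 2 members these were 43 genes, 22 listed as the domain alone and 21 as the domain with a protein kinase. The 2 members were selected on differences between groups, so nothing is read from their own ranks here. By the span between the highest and lowest group mean, the 2 members came first and second in the family. The next were AT1G77280 with 2.21 log2 units, AT5G61560 with 2.12, AT1G21590 with 1.99 and RD2 with 1.90. Of the 43 other genes, 18 passed in at least 1 comparison of 2 groups, and the largest difference among them was 2.21 log2 units. The matching share of all probe sets was not counted, and salt in Col alone called 20.9% of them, so nothing is read from the 18.

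Of the other family genes, AT3G17020 (r = 0.82) and AT1G11360 (0.78) had the highest r with AT3G62550 over the group means. Both values were above that of AT3G53990 with AT3G62550 (0.75). With AT3G53990 the same genes had an r of 0.44 and 0.52. At the other end, PHOS34 had the lowest r with AT3G62550, at -0.84. In the comparisons of CBF3 with Ws, most of the other family genes were not called. In CBF3 against Ws, 4 of 43 rose and 3 fell at 0 mM, with a median log2 difference of 0.00 against 0.01 for all probe sets. At 100 mM, 3 rose and 1 fell, with a median of 0.11 against 0.04. These counts are 16.3% and 9.30% of the 43, beside the 6.79% and 3.73% of all probe sets given above. RD2, AT2G45910 and AT3G17020 were among the genes that rose at both salt levels, AT1G44760 rose at 0 mM, and AT1G21590, AT1G77280 and AT3G11930 fell at 0 mM. AT3G03270, a gene known from responses to low oxygen, fell at 100 mM. The count at 0 mM was lower in each fit that left out 1 of the arrays compared. In each of these fits the share of the 43 stayed above that of all probe sets, if only narrowly without replicate 1 of unsalted CBF3. At 100 mM the count was lower without replicate 1 of salted Ws and without either salted CBF3 array. It was higher without replicate 2 of salted Ws. The share was below that of all probe sets only without replicate 1 of salted Ws.

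In M6PR against Col without salt, 1 of 43 rose (AT5G61560) and 3 fell (AT1G21590, AT1G77280 and AT5G63940), with a median of -0.10 against -0.05 for all probe sets. That is 9.30% of the 43, beside 10.3% of all probe sets. The count was lower in each fit that left out 1 of the arrays compared, and the share of the 43 was then above that of all probe sets. At 100 mM limma called 0 of 43, although 14 had an unadjusted p under 0.05, and 8 (18.6%) were called without replicate 2 of salted M6PR, a fit that called 16.4% of all probe sets. In SOS1 against Col(gl), limma called 0 of 43 at 0 mM (5 at an unadjusted p under 0.05), but 9 (20.9%) without replicate 2 of unsalted SOS1, a fit that called 19.5% of all probe sets. At 100 mM AT1G44760 rose and AT5G61560 fell, 4.65% of the 43 beside 3.13% of all probe sets. Without either salted Col(gl) array the count was lower and the share of the 43 was below that of all probe sets. The count was higher without replicate 1 of salted SOS1 and lower without replicate 2, with the share above that of all probe sets in both fits.

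Salt in Col leaves gave the largest count in the family, 2 higher and 11 lower of 43, with a median of -0.24 against -0.12 for all probe sets. That is 30.2% of the genes beside 20.9% of all probe sets. RD2 and AT5G61560 rose. The 11 that fell, by 0.42 to 1.58, were AT1G21590, AT1G48960, AT1G77280, AT2G07020, AT2G19410, AT2G24370, AT2G45910, AT2G47710, AT3G11930, AT4G31230 and AT5G14680. The count of 13 was lower in each fit that left out 1 of the 4 Col arrays, and without both arrays that stood apart. In each fit that left out 1 Col array, the share of the 43 called was below that of all probe sets. AT4G31230 has 2 probe sets that disagree, at -0.46 and -0.01. Salt in Ws leaves gave 1 higher (RD2) and 2 lower (AT1G48960 and AT3G20200), or 6.98% of the 43 beside 4.71% of all probe sets. The count of 3 was 0 without either unsalted Ws array and 1 without replicate 1 of salted Ws. In the other 4 genotypes limma called 0 of 43 for salt, with an unadjusted p under 0.05 in 1 gene in CBF3, 2 in M6PR, 5 in SOS1 and 2 in Col(gl). Without replicate 2 of unsalted SOS1, 8 (18.6%) were called in SOS1, beside 16.6% of all probe sets. Of the 3 interactions, that of M6PR called 1 of 43 (AT1G77280), or 2.33% beside 6.08% of all probe sets, and 8 (18.6%, beside 17.0%) without replicate 2 of salted M6PR. Those of CBF3 and SOS1 called 0 each in limma, with 7 and 3 at an unadjusted p under 0.05.

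**Figure D4:**
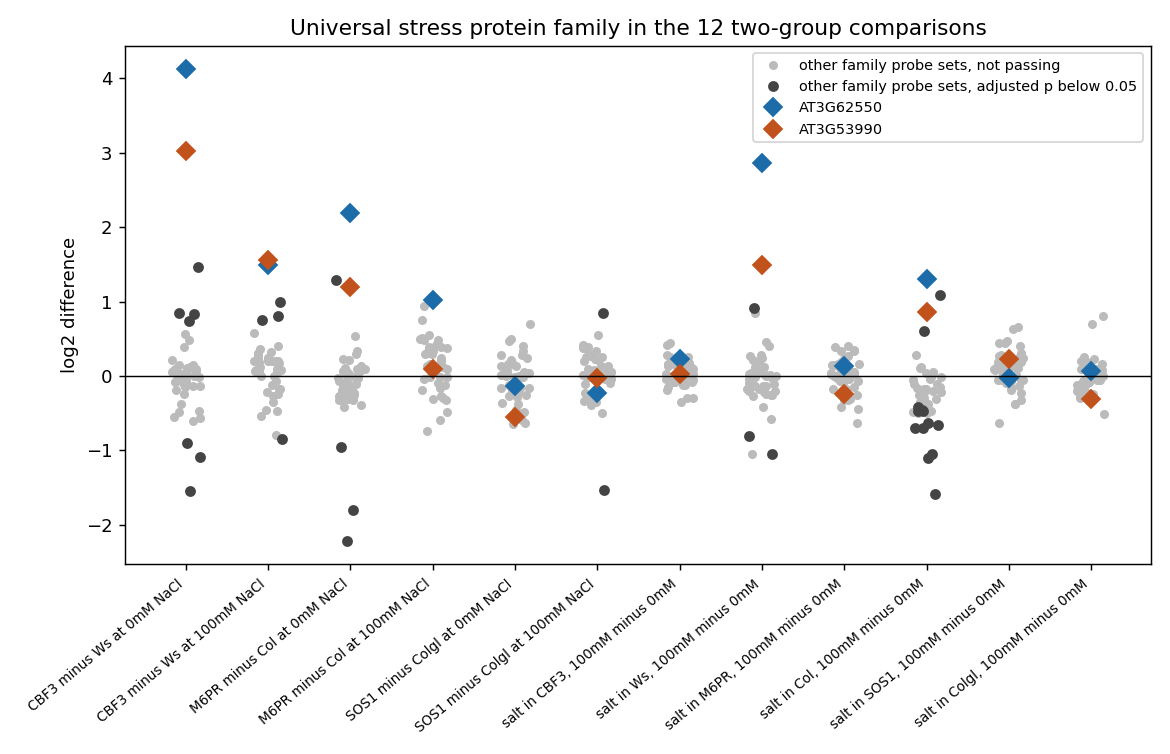
Log2 difference (y axis) of the 44 probe sets of the 43 other family genes (grey, black where the adjusted p is below 0.05) and of AT3G62550 and AT3G53990 (diamonds, no test shown) in the 12 comparisons of 2 groups (x axis, Colgl for Col(gl)). The 2 members stand above the other family genes in both comparisons of CBF3 with Ws and in salted against unsalted Ws, while most other family genes lie within 1 log2 unit of 0. The members were selected on such differences, so nothing is read from this contrast.

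RD2 (AT2G21620), named for its induction by desiccation, was the family gene closest in pattern to AT3G53990, with r = 0.87 over the 12 group means. It read 11.09 and 11.20 log2 units in salted CBF3 leaves and 10.94 and 10.47 in unsalted ones, against 9.87 and 10.44 in salted Ws leaves and 9.20 and 9.28 in unsalted ones. The CBF3 arrays were all above the Ws arrays. The log2 difference was 1.46 ± 0.18 at 0 mM (adjusted p = 9.9e-05, limma, n = 2 arrays per group) and was called in all 11 alternative fits. At 100 mM it was 0.99 ± 0.18 (adjusted p = 0.0052, and 0.081 without replicate 1 of salted Ws). Salt raised RD2 by 0.91 ± 0.18 in Ws (adjusted p = 0.0097) and by 0.60 ± 0.18 in Col (adjusted p = 0.025). With an array left out, the adjusted p for salt in Ws ran from 0.0046 to 0.10, above the threshold without either unsalted Ws array. For salt in Col it ran from 0.067 to 0.14, above the threshold without any 1 of the 4 arrays.

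AT1G77280, listed with a kinase, ran opposite to the members, with r = -0.80 to AT3G62550 and -0.58 to AT3G53990. It read 4.10 and 3.97 in salted M6PR leaves and 3.88 and 3.90 in unsalted ones, against 4.54 and 4.51 in salted Col leaves and 6.09 and 6.12 in unsalted ones. Of these 8 arrays the 2 of unsalted Col stood apart. The difference of M6PR from Col at 0 mM was -2.21 ± 0.18 (adjusted p = 1.2e-05), salt in Col gave -1.58 ± 0.18 (adjusted p = 0.00014), and the interaction was 1.73 ± 0.25 (adjusted p = 0.0041). These 3 calls were kept in every alternative fit that tested the gene. Its group means lay below the array medians of 5.77 to 6.09 in all groups but unsalted Col, and detection above background was not tested. In CBF3 against Ws at 0 mM it gave -0.90 ± 0.18 (adjusted p = 0.0057), a call lost without replicate 2 of unsalted Ws and without replicate 1 of unsalted CBF3 (adjusted p up to 0.090).

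AT1G21590, also listed with a kinase, was likewise highest in unsalted Col and Ws. It read 7.56 and 7.55 in unsalted M6PR leaves and 9.38 and 9.32 in unsalted Col leaves, a difference of -1.80 ± 0.34 (adjusted p = 0.0031) that was called in all 11 alternatives. In unsalted CBF3 leaves it read 7.60 and 7.61, against 9.10 and 9.20 in unsalted Ws leaves, a difference of -1.55 ± 0.34 (adjusted p = 0.012, and from 0.044 to 0.098 with an array left out, above the threshold without either unsalted Ws array or replicate 1 of unsalted CBF3). Salt in Col gave -1.10 ± 0.34 (adjusted p = 0.031, and from 0.098 to 0.14 without any 1 of the 4 arrays). Its r was -0.83 with AT3G62550 and -0.75 with AT3G53990.

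The other 5 genes with the largest called differences passed less firmly. AT5G61560, listed with a kinase, gave 1.29 ± 0.33 in M6PR against Col at 0 mM (adjusted p = 0.019), 1.09 ± 0.33 for salt in Col (0.029) and -1.53 ± 0.33 in SOS1 against Col(gl) at 100 mM (0.020). AT3G11930 gave -1.09 ± 0.25 in CBF3 against Ws at 0 mM (adjusted p = 0.015) and -1.05 ± 0.25 for salt in Col (0.0090). AT1G48960 gave -1.04 ± 0.23 for salt in Ws (adjusted p = 0.018) and -0.70 ± 0.23 for salt in Col (0.040). AT5G63940 gave -0.95 ± 0.25 in M6PR against Col at 0 mM (adjusted p = 0.022), and AT3G03270 gave -0.85 ± 0.22 in CBF3 against Ws at 100 mM (0.046). None of these 9 calls held in all 4 fits that left out 1 array of the groups compared. In unsalted M6PR against Col, the call of AT5G61560 was lost without either Col array and without replicate 2 of M6PR. That of AT5G63940 was lost without any 1 of the 4 arrays, with differences from -1.04 to -0.87. That of AT5G61560 in SOS1 was lost without either Col(gl) array and without replicate 2 of SOS1. Those of salt in Col were lost at least without replicate 1 of either Col group, and that of AT1G48960 in Ws without either unsalted Ws array and replicate 1 of the salted ones. That of AT3G11930 in CBF3 was lost without either Ws array and replicate 1 of CBF3, and that of AT3G03270 without replicate 1 of salted Ws and either CBF3 array. Adjusted p with 1 array left out ran up to 0.45.

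Genes outside the family show what else differed in the same comparisons, from lists written with earlier results of these arrays known. The adjusted p-values given for genes of these lists and for the marker genes below are thus a description and no independent test. Of 21 listed water-deficit and cold genes, 6 had a single-gene probe set. Of these 4 rose in CBF3 against Ws at either salt level, 2 in M6PR against Col at 0 mM, 4 with salt in Ws, 5 with salt in Col and 1 (COR15A) with salt in M6PR, and 1 each was lower in the interactions of CBF3 and M6PR. Of all probe sets, 6.79% and 3.73% were called in CBF3 against Ws at 0 and 100 mM, 10.3% in M6PR against Col at 0 mM, and 4.71%, 20.9% and 0.541% with salt in Ws, Col and M6PR. COR47 rose by 4.41 ± 0.29 in CBF3 against Ws at 0 mM (adjusted p = 2.1e-07) and by 2.23 ± 0.29 with salt in Ws (adjusted p = 0.00087). COR15A and COR15B, proteins of the chloroplast stroma made in the cold, rose in CBF3 against Ws at 0 mM by 3.27 ± 0.18 and 5.57 ± 0.39, and were at -0.25 ± 0.18 and 0.87 ± 0.39 in M6PR against Col at 0 mM, where neither passed. LTI30 is the second gene that rose in that comparison, by 2.01 ± 0.44 (adjusted p = 0.0079), and is named after its value was seen.

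Of 20 listed sugar-starvation genes, 5 were measured. All 5 rose in M6PR against Col at 0 mM, 3 rose in CBF3 against Ws at 0 mM, and 0 of 5 were called by limma in either comparison at 100 mM (1 at an unadjusted p under 0.05 for CBF3 and 0 for M6PR). With salt, 3 of 5 rose in Ws and 4 of 5 in Col, while 2 of 5 (MCCA and ATL8) fell in M6PR, where the median was -1.41, and all 5 were lower in the M6PR interaction. The shares of all probe sets called in these comparisons are those just given, and 6.08% for the interaction. AT3G15450 rose by 5.98 ± 0.97 in M6PR against Col at 0 mM (adjusted p = 0.0012), AT3G15630 by 6.69 ± 0.82 (0.00025) and AT5G19120 by 5.47 ± 0.77 (0.00053). Both AT3G62550 and AT3G53990 were also higher in M6PR against Col and in CBF3 against Ws at 0 mM, and with salt in Ws and Col. At 100 mM, where 0 of 5 were called, AT3G62550 differed by 1.49 in CBF3 against Ws and by 1.02 in M6PR against Col. AT3G53990 differed there by 1.55 and 0.10, and a link with the listed genes was not tested. In SOS1 against Col(gl), 1 of 5 fell at each salt level, MCCA at 0 mM and ATL8 at 100 mM, which are named after their values were seen. Of the 5, 2 had an unadjusted p under 0.05 at 0 mM and all 5 at 100 mM, where the median was -2.05. Of all probe sets, 1.24% were called at 0 mM and 3.13% at 100 mM.

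Of 17 listed heat-shock chaperones, 6 were measured, of which 1 fell in CBF3 against Ws at 100 mM (Hsp70-2, by 1.10 ± 0.23) and 2 rose with salt in Ws (Hsp70-2 by 0.84 ± 0.23 and AT2G29500 by 1.26 ± 0.34). Of all probe sets, 3.73% were called in CBF3 against Ws at 100 mM and 4.71% with salt in Ws. AT3G09440, another chaperone of the list, passed in no comparison. Of 14 listed hypoxia genes, 4 were measured, and limma called 0 of 4 in any comparison, with at most 2 at an unadjusted p under 0.05.

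Marker genes were read to check the tissue. Of 20 leaf photosynthetic markers, 2 were measured, and RCA (13.44 to 13.94) and LHCB4.1 (13.24 to 13.61) were high in all arrays. The 4 measured of 11 root markers read 3.75 to 5.27, and 0 of 8 flower and seed markers had a single-gene probe set. The 1 measured guard cell marker of 8, FMA, read 6.09 to 6.85. The 1 measured trichome gene of 7, TRY, a repressor of trichome formation, was lower in some of the comparisons where the members were higher, but not in all. Its group means were 4.89 and 5.22 in salted and unsalted CBF3 leaves, against 6.86 and 8.22 in salted and unsalted Ws leaves. They were 5.97 and 5.25 in salted and unsalted M6PR leaves, against 5.89 and 7.98 in salted and unsalted Col leaves. TRY fell in both comparisons of CBF3 with Ws (adjusted p = 3.8e-05 at 0 mM, and -1.97 ± 0.33 with adjusted p = 0.0030 at 100 mM). It fell in M6PR against Col at 0 mM (-2.73 ± 0.33, adjusted p = 0.00020), and with salt in Ws (-1.36 ± 0.33) and Col (-2.10 ± 0.33). Between salted M6PR and salted Col leaves TRY differed by only 0.09, where AT3G62550 differed by 1.02. TRY differed by 0.72 with salt in M6PR and by 0.98 between salted SOS1 and salted Col(gl) leaves. Both had an unadjusted p under 0.05 in limma and were not called, and the members there lay between -0.24 and 0.14. The 1 measured senescence gene of 6, SAG101, rose by 0.81 ± 0.21 in M6PR against Col at 0 mM and fell by 1.04 ± 0.21 and 1.02 ± 0.21 in SOS1 against Col(gl) at 0 and 100 mM. The part of such cell types in the values of AT3G62550 and AT3G53990 was not tested.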

How the data were processed

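The deposited values are log2 signals. Per the submitters' processing notes the authors made them with GCOS and RMA, whose versions and probe definition were not given in the sources used here. RMA brings the arrays to one distribution, which reduces any shift common to most of them. Of 22810 probe sets, 64 controls were left out. By the platform's annotation, 13513 of the rest had 1 gene, 503 several and 8730 none, and a RefSeq table of assembly TAIR10.1 matched 13436.

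The 12 groups of 2 arrays came from the sample titles. limma 3.58.1 in R 4.3.3 fitted 1 mean per group over all 24 arrays (12 residual and 3.11 prior degrees of freedom, eBayes, two-sided). In each of 12 comparisons and 3 interactions, p-values were adjusted by Benjamini and Hochberg's method over 22746 probe sets, and the threshold was 0.05. The 2 arrays per group limit the precision of every value.

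The members and gene lists were chosen with earlier results of these data known. AT2G16790 was taken out of the first family list of 49 genes once the data were at hand, because it is not known as a universal stress protein gene. It passed in 0 of 15 comparisons by limma, so the counts of calls are the same with it. The split by kinase was added then too. At most 8 other family genes with the largest called differences are described in full, 5 genes by likeness, and up to 3 of each other list by mean level. Alternatives were quantile normalization, median centring, array weights, a fit per background, leaving out the dimmest 40% of probe sets, the 2 arrays whose dap spike-in was low or each array in turn, and a replicate block. Protein and promoter comparisons were not analysed here.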

Additional observations from a re-analysis of the deposited data

Results flagged for a closer look

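The interaction, the salt difference in a line minus that in its wild type, was listed for 4 values of the family. AT3G62550 gave -2.62 ± 0.28 log2 units for CBF3 minus Ws and -1.17 ± 0.28 for M6PR minus Col. AT3G53990 gave -1.10 ± 0.28 for M6PR minus Col. These 3 values belong to genes chosen with them known, so they are a description and no test. AT1G77280 gave 1.73 ± 0.25 for M6PR minus Col (limma, adjusted p = 0.0041), with its highest group mean in unsalted Col. TRY, the 1 measured trichome gene, gave 2.82 ± 0.46 in the same interaction, and its part in these values was not tested.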

How the results depend on the processing

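Of 294 values of AT3G62550 and AT3G53990 under an alternative, 267 stayed within the residual SD of the reported value, and no called value changed sign. Without the 2 arrays whose dap spike-in was low, AT3G53990 gave 1.78 in CBF3 against Ws at 100 mM, 1.26 for salt in Ws and -1.24 for the CBF3 interaction. With 1 array left out, AT3G62550 ran from -0.55 to 0.10 in SOS1 against Col(gl) at 100 mM, from -0.35 to 0.30 for salt in SOS1 and from -0.42 to 0.24 for the SOS1 interaction. AT3G53990 ran from 1.30 to 1.80 in CBF3 against Ws at 100 mM, from -0.83 to -0.29 in SOS1 against Col(gl) at 0 mM and from -0.23 to 0.27 for salt in CBF3. It ran from 1.26 to 1.71 for salt in Ws and from -0.047 to 0.49 for salt in SOS1. Its interactions ran from -1.72 to -1.22 for CBF3 and from 0.26 to 0.81 for SOS1.

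The interaction calls also depended on the fit. That of AT3G62550 for CBF3 was lost in a fit of each background alone, that of AT3G53990 for CBF3 was gained with quantile normalization, with array weights and without replicate 2 of salted Ws, and both M6PR calls were lost with median centring. The M6PR call of AT3G62550 at 100 mM was lost with array weights, in the fit per background and without the 2 low-dap arrays.

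Counts of other family genes moved more. Those of all probe sets moved over the alternatives too and are given below only as ranges, so nothing is read from the family counts. Array weights gave 12 in CBF3 against Ws at 0 mM, 8 in M6PR against Col at 0 mM, 3 for salt in Col(gl) and 6 for the M6PR interaction. A fit per background gave 4 and 0 in CBF3 against Ws at 0 and 100 mM, 1 in SOS1 at 100 mM, 8 for salt in Col and 2 for the M6PR interaction. Without the low-dap arrays there were 0 in CBF3 against Ws at 100 mM, 1 for salt in Ws and 2 for salt in Col. Quantile normalization gave 1 in SOS1 at 100 mM and 3 for the M6PR interaction, and median centring 3 for that interaction too. Leaving out dim probe sets gave 8 for salt in Col and 0 for the M6PR interaction, because the genes no longer counted were themselves left out. With 1 array left out, the counts at 0 and 100 mM ran from 1 to 6 and 0 to 5 for CBF3, 2 to 3 and 0 to 8 for M6PR, and 0 to 9 and 0 to 4 for SOS1. They ran from 0 to 4 for salt in Ws, 1 to 6 in Col and 0 to 8 in SOS1, and for the interactions from 0 to 1 for CBF3, 1 to 8 for M6PR and 0 to 1 for SOS1. Beyond the dim probe sets left out, the cause of these changes was not tested.

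Counts over all probe sets, which set the backgrounds above, ran over all alternatives from 463 to 3780 and 278 to 1367 for CBF3 at 0 and 100 mM, 944 to 5332 and 10 to 3720 for M6PR, and 8 to 4439 and 88 to 1483 for SOS1. For salt they ran from 0 to 83 in CBF3, 123 to 2494 in Ws, 11 to 375 in M6PR, 1409 to 8076 in Col, 0 to 3787 in SOS1 and 0 to 1519 in Col(gl). For the interactions they ran from 3 to 474, 150 to 3860 and 0 to 661. The labels do not say that a replicate number marks a shared batch. Deviations of same-numbered arrays correlated between -0.36 and 0.55 over the comparisons, so the numbers were not taken to pair arrays, and sharing in some groups is not excluded. With the replicate number as a block the differences were the same (4.12 for AT3G62550 in CBF3 against Ws at 0 mM), and the count over all probe sets there was 1636 instead of 1545.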
